A study of Mus musculus with 2 samples.

Results

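The 10 genes described here encode proteins of the piRNA pathway: Piwil1, Piwil2, Piwil4, Mael, Tdrd1, Tdrd5, Tdrd6, Tdrd9, Gtsf1 and Mov10l1. They were picked out by symbol, by a rule that has no limit on any measured value, and all 10 were found among the 41459 genes listed for both libraries. Droplet-based single-cell RNA sequencing had been run on whole testis of mice aged 55 days. The library labelled RAD21L KO came from a Rad21l-/- mouse, which lacks a cohesin subunit of the meiotic chromosome axis, and the library labelled WT from a Rad21l+/+ mouse. Each genotype had 1 library, hence no replicates and no test. Every KO and WT difference below is one between these libraries, and 95% intervals, given in brackets, cover counting error only.

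piRNAs are short RNAs bound by PIWI proteins that keep transposons silent in the male germ line. Long precursor transcripts are handed by the helicase MOV10L1 to the processing machinery, trimmed and loaded onto PIWI proteins in perinuclear granules, whose scaffolds include Tudor domain proteins. In mouse, PIWIL4 acts in fetal germ cells and early spermatogonia, PIWIL2 through much of spermatogenesis, and PIWIL1 with the abundant piRNAs of pachytene spermatocytes and round spermatids.

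Promoter windows are shown because pathway genes in mouse testis are known targets of the transcription factors A-MYB (gene Mybl1) and TCFL5, and because the 2 genes whose windows held both searched motifs had different patterns over the stages. The windows are the 250 bases before each annotated start in RefSeq, in build GRCm38.p6, printed in the direction of transcription. The deposited counts were made on GRCm39, so windows were matched by symbol and not by position. Capitals mark TAACNG (a MYB-type motif, searched on both strands, so that it reads CNGTTA on the other strand) and CACGTG (an E-box, the same on both strands). In the printed windows no match overlapped another. The Piwil1 window lies on the plus strand at chr5:128735996-128736245, the Mov10l1 window on the plus strand at chr15:88982744-88982993, and the Gtsf1 window, which held neither motif, on the minus strand at chr15:103430428-103430677.
Piwil1: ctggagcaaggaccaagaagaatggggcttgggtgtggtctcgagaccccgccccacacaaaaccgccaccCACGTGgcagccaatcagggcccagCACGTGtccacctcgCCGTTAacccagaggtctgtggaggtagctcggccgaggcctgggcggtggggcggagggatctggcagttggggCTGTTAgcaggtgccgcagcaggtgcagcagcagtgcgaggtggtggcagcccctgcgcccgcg
Mov10l1: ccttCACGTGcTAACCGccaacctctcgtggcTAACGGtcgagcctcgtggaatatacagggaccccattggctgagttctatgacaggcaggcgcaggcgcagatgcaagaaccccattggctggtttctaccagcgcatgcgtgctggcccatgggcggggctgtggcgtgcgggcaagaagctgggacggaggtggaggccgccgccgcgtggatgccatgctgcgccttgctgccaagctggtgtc
Gtsf1: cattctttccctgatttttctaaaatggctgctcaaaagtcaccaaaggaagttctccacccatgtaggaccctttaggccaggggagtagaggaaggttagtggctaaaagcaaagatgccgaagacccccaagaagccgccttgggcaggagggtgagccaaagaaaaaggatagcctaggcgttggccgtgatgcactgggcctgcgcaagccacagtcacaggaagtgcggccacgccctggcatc
Windows were listed for 8 of the 10 genes, all but Piwil2 and Tdrd6, and a gene was counted if any of its windows held a match. TAACNG was found in 3 of the 8 (Piwil1, Mov10l1 and Tdrd5; 37.5%) and in 22.3% of the 27018 genes with a window of this length. CACGTG was found in 5 of the 8 (Piwil1, Tdrd9, Mael, Mov10l1 and Tdrd1; 62.5%) and in 6.86% of all genes. Both motifs were found in Piwil1 and Mov10l1 (25%), and in 1.17% of all genes. Of 21 other pathway genes, 14 had a window, with TAACNG in 3 (21.4%), CACGTG in 4 (28.6%) and both in 0. A match is a description of these letters and no evidence of binding.

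The KO library held 7118 barcodes and 28001992 UMIs (unique molecular identifiers, the tags by which captured transcripts are counted), and the WT library 5415 barcodes and 33096309 UMIs. After filtering, 6255 KO and 5400 WT cells were kept. Cells with at least 2000 UMIs were assigned to stages by gates, which are limits on the share of a cell's UMIs that falls on marker genes, and no pathway gene was a marker. The KO library gave 677 spermatogonia, 314 preleptotene to leptotene cells, 232 leptotene to zygotene cells and 2532 somatic cells, and 0 cells in the pachytene and spermatid gates. The WT library gave 102, 52 and 42 cells in the first 3 of these gates, 164 pachytene cells with axis markers high, 308 with axis markers low, 528 round and 1280 elongating spermatids, and 57 somatic cells. As a check of the labels, Rad21l stood at 31.6 CPM (a gene's share of the UMIs of a gate, scaled to the same total for every gate) in KO preleptotene to leptotene cells (43 UMIs), against 159 CPM in WT (40 UMIs). Which exons the allele removes is not given, so the remaining KO UMIs check the genotype in part. Libraries shared 14 barcodes, of which 0 lay in either leptotene to zygotene gate.

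Free RNA of spermatids was seen in WT and stands beside every low value in that library. Elongating spermatid markers took at most 0.000710% of UMIs in the KO spermatogonia, early prophase and somatic gates, against 0.895% in WT somatic cells and 0.901 to 1.22% in the WT spermatogonia and early prophase gates, none of which should hold such transcripts. The level of each pathway gene in somatic cells of the same library is therefore given as background.

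In WT cells the highest levels of Piwil2 and Piwil1 followed each other in stage. Piwil2 was highest in the leptotene to zygotene gate, and Piwil1 was highest in pachytene cells with axis markers high. Piwil4 was detected only in the spermatogonia gate, on 7 UMIs, and the WT early prophase gates were too small to show a fall from that level. In KO cells, which ended at the leptotene to zygotene gate, both Piwil1 and Piwil2 stood higher at that stage than at the one before, at 36.4 CPM of Piwil1 in KO, against 486 CPM in WT, and 354 CPM of Piwil2 in KO, against 536 CPM in WT.

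Piwil1, whose protein cleaves targets in pachytene cells and round spermatids, stood at 11.2 CPM in KO spermatogonia (49 UMIs), 3.68 CPM in KO preleptotene to leptotene cells (5 UMIs) and 36.4 CPM in KO leptotene to zygotene cells (46 UMIs), with 0.706 CPM in KO somatic cells. In WT it stood at 66.4, 59.7, 486, 1868, 783, 67.2 and 45.3 CPM, from spermatogonia through preleptotene to leptotene, leptotene to zygotene, pachytene with axis markers high, pachytene with axis markers low and round to elongating cells, with 50.0 CPM in somatic cells. The WT values of spermatogonia, preleptotene to leptotene cells and round and elongating spermatids thus lay near the WT somatic level. Those of the leptotene to zygotene and pachytene gates lay far above it. The leptotene to zygotene level over the preleptotene to leptotene level was 3.31 on the log2 scale [1.98 to 5.0] in KO and 3.03 [2.25 to 3.91] in WT. With each cell thinned to 2000 UMIs, a Piwil1 UMI was found in 7.33% of KO and 45.2% of WT leptotene to zygotene cells, beside 0.237% of KO and 8.77% of WT somatic cells.

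Piwil2, whose protein binds piRNAs in spermatogonia and spermatocytes, stood at 160 CPM in KO spermatogonia (700 UMIs), 133 CPM in KO preleptotene to leptotene cells and 354 CPM in KO leptotene to zygotene cells, with 9.95 CPM in KO somatic cells. In WT the same gates gave 148, 131 and 536 CPM. WT levels were then 397 and 105 CPM in the pachytene gates, 26.0 CPM in round and 19.1 CPM in elongating spermatids, the last of which equalled the somatic 19.1 CPM. The 2 libraries were thus close up to preleptotene to leptotene and both stood higher at leptotene to zygotene. Piwil4, a nuclear PIWI protein that guides DNA methylation in fetal germ cells, had 42 UMIs in KO spermatogonia (9.61 CPM [6.93 to 13.0]) and 7 UMIs in WT spermatogonia (9.48 CPM [3.81 to 19.5]). It had 0 UMIs in the later gates of both libraries, where 3 UMIs would have been 2.21 CPM in KO preleptotene to leptotene cells and 0.30 CPM in the deepest WT gate. In the WT preleptotene to leptotene and leptotene to zygotene gates, 3 UMIs would have stood above the WT spermatogonia level. A count of 0 UMIs there cannot show a fall. KO somatic cells held 17 Piwil4 UMIs (1.09 CPM).

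Within KO spermatogonia, 150 cells with undifferentiated markers high were set beside 527 with those markers low. Piwil4 stood at 25.6 CPM where those markers were high and 4.02 CPM where they were low, a log2 ratio of 2.67 [1.69 to 3.74]. Piwil1 (1.58), Gtsf1 (1.35) and Tdrd5 (1.17) also stood at least 2-fold higher in cells with undifferentiated markers high. These 4 of the 9 pathway genes tested compare with 10.3% of all genes past the same fold, where tested means at least 20 UMIs in both gates together. Tdrd9 was the 1 tested pathway gene below 0, at -0.33 [-0.67 to 0.01]. WT had 21 cells with undifferentiated markers high, under the 30 set as the least for a gate, so the split was made in KO alone.

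**Figure D1:**
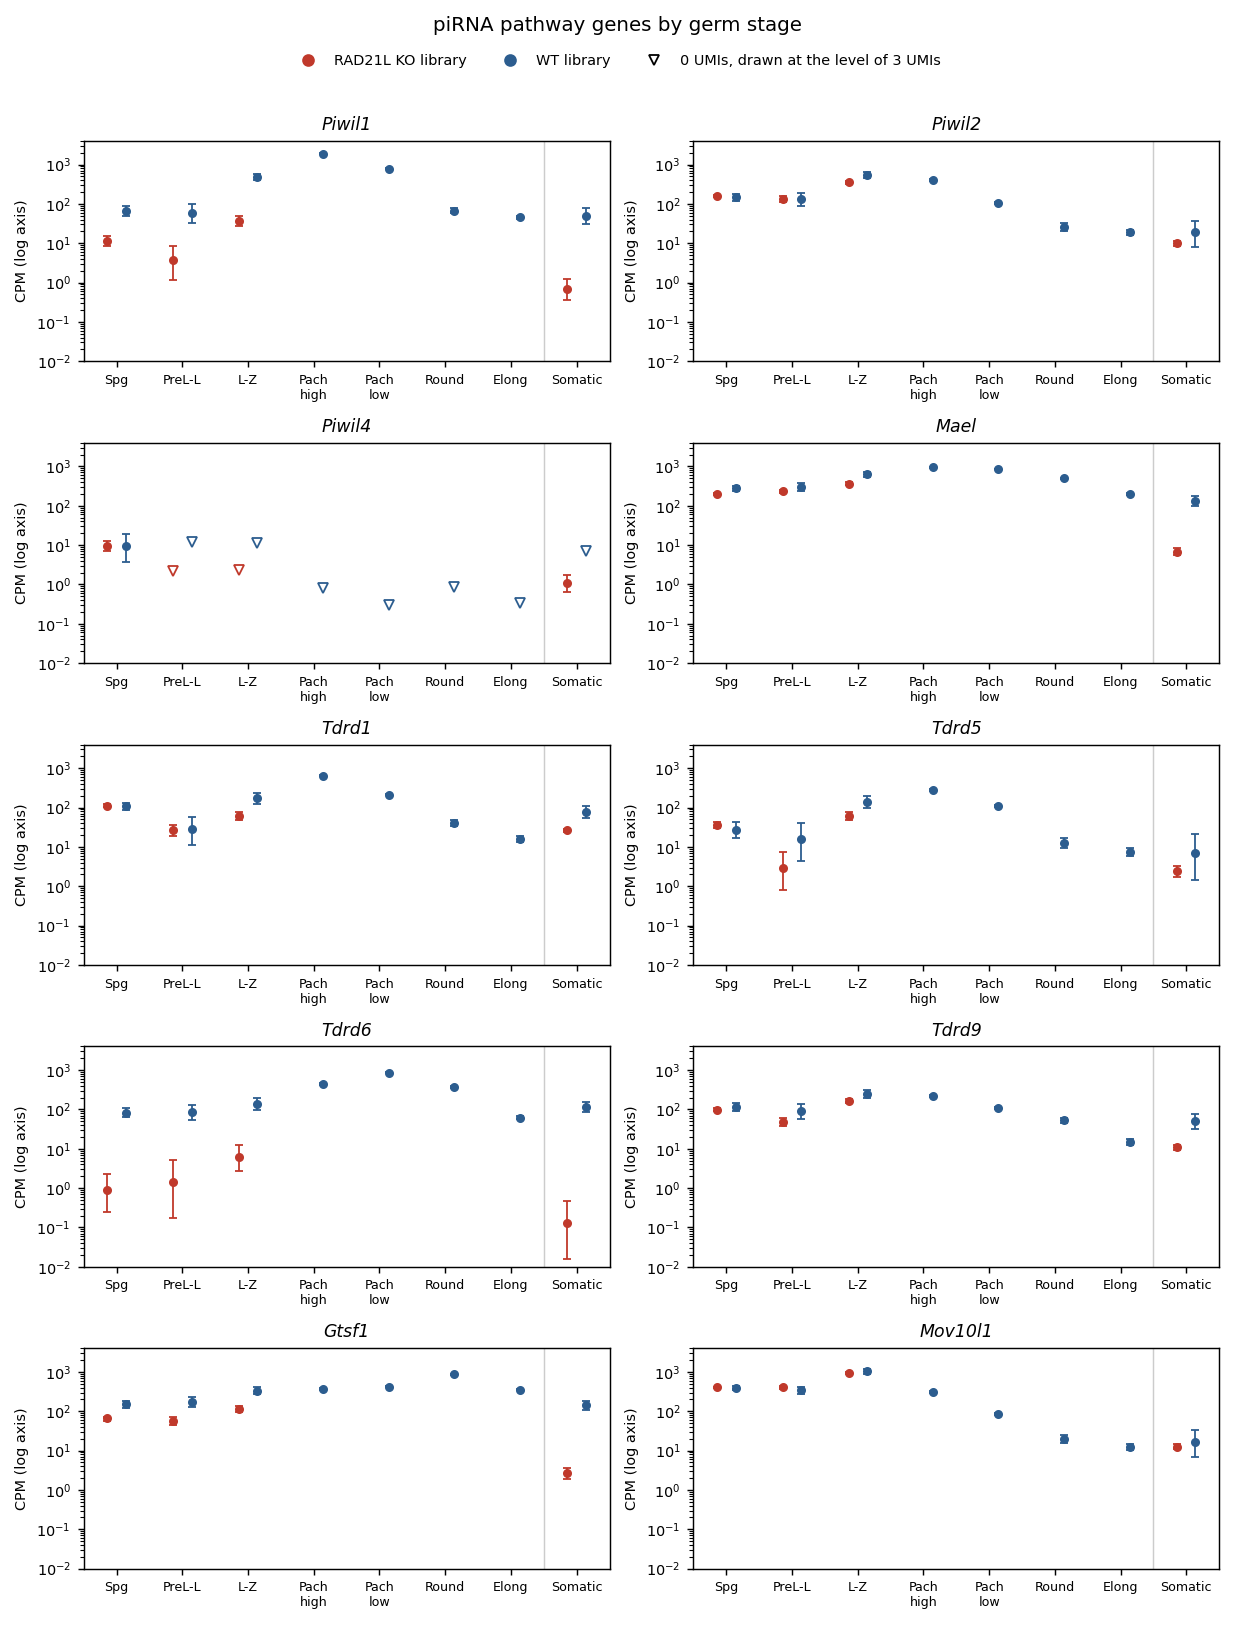
Level of each gene in CPM (log axis) by gate, KO left of WT, with exact Poisson 95% intervals; Spg is spermatogonia, PreL-L preleptotene to leptotene, L-Z leptotene to zygotene, Pach high and low the pachytene gates with axis markers high and low. Piwil1 reaches 1868 CPM in WT pachytene cells with axis markers high, and Mov10l1 is highest at L-Z, at 938 CPM in KO and 1034 CPM in WT.

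Mov10l1, the helicase at the start of piRNA processing, stood at 406, 404 and 938 CPM in KO spermatogonia, preleptotene to leptotene and leptotene to zygotene cells, with 12.6 CPM in KO somatic cells. In WT it stood at 389, 342 and 1034 CPM in the same gates, then at 306 and 85.7 CPM in the pachytene gates with axis markers high and low, 19.7 CPM in round and 12.4 CPM in elongating spermatids, with 16.7 CPM in somatic cells. It was the gene with the closest KO and WT levels at leptotene to zygotene. It was also the 1 of 9 tested that stood at least 2-fold lower in pachytene cells with axis markers high than in leptotene to zygotene cells of WT (log2 ratio -1.76 [-1.95 to -1.56]; 21.0% of all genes were past that fold).

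Gtsf1, a zinc finger cofactor that speeds target cleavage by PIWI proteins, had its WT maximum latest of the 10 genes. It stood at 65.7, 56.6 and 113 CPM in the KO spermatogonia, preleptotene to leptotene and leptotene to zygotene gates, with 2.70 CPM in KO somatic cells. WT values were 150, 175 and 336 CPM in those gates, 374 and 425 CPM in the pachytene gates, 868 CPM in round and 358 CPM in elongating spermatids, with 143 CPM in somatic cells. The WT spermatogonia and preleptotene to leptotene values did not stand clear of the somatic one. Round spermatids over pachytene cells with axis markers low gave a log2 ratio of 1.03 [0.96 to 1.10], and Gtsf1 was the only 1 of the 9 tested pathway genes at least 2-fold higher there, a fold that 32.1% of all genes were past.

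Mael, a granule protein needed for transposon silencing, stood at 198, 231 and 363 CPM in the KO spermatogonia, preleptotene to leptotene and leptotene to zygotene gates, with 6.80 CPM in KO somatic cells. WT values were 275, 298 and 633 CPM in those gates, 958 and 855 CPM in the pachytene gates, 495 CPM in round and 197 CPM in elongating spermatids, with 133 CPM in somatic cells. Mael thus had a broad maximum over both pachytene gates, where Piwil1 was 2.38-fold lower in cells with axis markers low than in cells with axis markers high.

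The Tudor genes did not share 1 pattern. Tdrd1 and Tdrd5, granule scaffold genes, stood low at preleptotene to leptotene and were highest in WT pachytene cells with axis markers high. Tdrd9, which encodes a helicase with a Tudor domain, was highest at leptotene to zygotene, and Tdrd6, needed for the chromatoid body of spermatids, was highest in pachytene cells with axis markers low.

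Tdrd1 stood at 111, 26.5 and 60.1 CPM in the 3 KO gates in stage order, and at 107, 27.8 and 174 CPM in the WT ones. In the WT pachytene gates it stood at 652 and 214 CPM with axis markers high and low, and in round and elongating spermatids at 40.0 and 16.3 CPM. The dip at preleptotene to leptotene against spermatogonia was -2.07 [-2.60 to -1.58] on the log2 scale in KO and -1.94 [-3.30 to -0.83] in WT. Both dips reached the somatic level or below it, which was 26.6 CPM in KO and 78.6 CPM in WT. For Tdrd1 that level is not a plain background, because most of its somatic UMIs lay in Sertoli cells. These held 379 of 414 UMIs in KO and 27 of 33 in WT. Leydig and other somatic cells of KO, whose values are given below, stood well under the KO dip.

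Tdrd5 stood at 36.4, 2.94 and 60.1 CPM in the 3 KO gates (159, 4 and 76 UMIs), and at 27.1, 15.9 and 143 CPM in the WT ones (20, 4 and 37 UMIs). Its KO dip was -3.63 [-5.52 to -2.24], and the WT one, of -0.77 [-2.78 to 0.81], had an interval that included 0. WT pachytene cells with axis markers high stood at 281 CPM and those with axis markers low at 110 CPM, and both spermatid gates were under 13 CPM. Tdrd5 was thus near its somatic level, which was 2.44 CPM in KO and 7.15 CPM in WT, in KO preleptotene to leptotene cells and in WT spermatids.

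Tdrd9 stood at 97.7, 47.8 and 164 CPM in the 3 KO gates and 10.8 CPM in KO somatic cells, and at 115, 91.5 and 251 CPM in the WT gates and 50.0 CPM in WT somatic cells. WT pachytene cells with axis markers high were at 223 CPM, within the interval of the leptotene to zygotene gate [194 to 320]. Tdrd6 had 4, 2 and 8 UMIs in the 3 KO gates (0.916, 1.47 and 6.33 CPM) and 2 UMIs in KO somatic cells. In WT those gates stood at 82.6, 87.5 and 139 CPM and somatic cells at 114 CPM, so that in WT Tdrd6 did not stand clear of the somatic level before pachytene. In KO leptotene to zygotene cells it stood above the KO somatic 0.128 CPM, on 8 UMIs. It reached 435 and 853 CPM in the WT pachytene gates with axis markers high and low, 381 CPM in round and 61.5 CPM in elongating spermatids.

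Between successive gates, members moved together at some steps and not at others. In KO, 5 of 9 tested genes stood at least 2-fold lower in preleptotene to leptotene cells than in spermatogonia (Piwil1, Piwil4, Tdrd1, Tdrd5 and Tdrd9), against 22.0% of all genes. In WT, 1 of 9 did so at that step (Tdrd1), against 18.9% of all genes. The members' median there was -1.03 in KO, with Tdrd6 not tested, and -0.17 in WT, with Piwil4 not tested. In WT, Piwil1, Tdrd6 and Gtsf1 lay at or near the WT somatic level in both gates, where a fall could not be shown. Tdrd5 had 4 UMIs in WT preleptotene to leptotene cells. The KO and WT counts at this step are therefore not a like comparison. In KO, 6 of 8 stood at least 2-fold higher in leptotene to zygotene than in preleptotene to leptotene cells, against 15.1% of all genes, and the members' median was 1.31 against -0.04 over all genes. In WT, 7 of 9 did so at that step, against 17.0% of all genes. Piwil1, Piwil2, Tdrd1, Tdrd5, Tdrd9 and Mov10l1 were past the fold in both libraries, and Mael in WT, at 1.08, beside 0.65 in KO. Against spermatogonia, leptotene to zygotene cells stood at least 2-fold higher for 3 of 9 genes in KO (Piwil1, Piwil2 and Mov10l1; 15.3% of all genes) and 7 of 9 in WT (15.2% of all genes). The KO and WT ratios come from different libraries, and their difference was not tested.

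Later WT steps split the list. In pachytene cells with axis markers high, 3 of 9 tested genes stood at least 2-fold higher than at leptotene to zygotene (Piwil1, 1.94; Tdrd1, 1.91; Tdrd6, 1.65), against 13.0% of all genes. In pachytene cells with axis markers low, 6 of 9 stood at least 2-fold lower than in those with axis markers high, against 20.1% of all genes, while Tdrd6 was 0.97 higher [0.89 to 1.05]. Round spermatids stood at least 2-fold lower than pachytene cells with axis markers low for 7 of 9, against 31.6% of all genes. Elongating over round spermatids gave 5 of 9, against 59.5% of all genes, a share close to the background. Both pachytene gates needed a share of pachytene markers, and axis markers only divided them. The set called axis markers here is one for all substages of prophase, and it includes genes such as Sycp1, Syce1 and Tex12 that are not axis genes. These 2 gates are thus ranges along that set and not separate cell types.

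The KO and WT libraries were compared in the 3 early gates that both held. In leptotene to zygotene cells 5 of 9 tested genes stood at least 2-fold lower in KO, against 9.99% of all 8475 genes tested, and 0 of 9 stood at least 2-fold higher, against 15.6%. The 5 were Tdrd6 (log2 ratio -4.46 [-5.77 to -3.33]), Piwil1 (-3.74 [-4.26 to -3.24]), Gtsf1 (-1.57 [-1.96 to -1.17]), Tdrd1 (-1.53 [-2.08 to -0.96]) and Tdrd5 (-1.25 [-1.83 to -0.64]). All 9 were below 0, with Mael at -0.80, Tdrd9 at -0.61 and Piwil2 at -0.60, and Mov10l1 at -0.14 had an interval that included 0 [-0.33 to 0.06]. The members' median was -1.25 and that of all genes 0.21. Gate limits 1.5 times as high also raised the pachytene marker ceiling, so cells with a higher pachytene marker share could enter this gate. It then held 247 KO and 95 WT cells, where it had held 232 and 42. WT pachytene cells with axis markers high went from 164 to 17. In this changed gate Mov10l1 turned to 0.57, and Piwil1 moved to -5.43, Tdrd1 to -3.23 and Tdrd5 to -2.16.

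Free RNA moved with part of this difference. Once the somatic level of each library was taken off (in WT scaled by the gate's elongating spermatid markers), an alternative chosen after seeing the data, 3 of 9 genes stood at least 2-fold lower in KO. Piwil1 was then at 35.7 CPM in KO and 428 CPM in WT, Tdrd5 at 57.7 CPM in KO and 134 CPM in WT, and Tdrd1 at 33.6 CPM in KO and 82.0 CPM in WT. Gtsf1 was at 110 CPM in KO and 169 CPM in WT, and Tdrd6 at 6.20 CPM in KO and 5.61 CPM in WT, where the WT value was under the 11.6 CPM that 3 UMIs would be. For Tdrd1 the somatic level includes the Sertoli signal described below, so this step takes off more than free RNA.

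Stage within the gate moved with it too. Pachytene markers took 0.159% of UMIs in KO leptotene to zygotene cells and 0.411% in WT ones, beside 0.009% in KO and 0.197% in WT somatic cells, while axis markers took 1.03% in KO and 1.00% in WT. The gate was therefore split by each cell's pachytene marker share. In cells with 0.2 to 0.4%, Piwil1 stood at 50.2 CPM in KO [31.1 to 76.8] (61 cells) and 312 CPM in WT [215 to 438] (18 cells). Piwil1 was 15.6 CPM in the 90 KO cells under 0.1% and 39.5 CPM in the 80 KO cells with 0.1 to 0.2%, and reached 642 CPM in the 21 WT cells with 0.4 to 0.6%. Within the 0.2 to 0.4% range, Mov10l1 stood at 1086 CPM in KO and 1077 CPM in WT, Piwil2 at 407 CPM in KO [348 to 473] and 538 CPM in WT [408 to 698], and Tdrd1 at 90.9 CPM in KO [64.3 to 125] and 113 CPM in WT [58.6 to 198]. In the same range Gtsf1 stood at 158 CPM in KO [122 to 201] and 350 CPM in WT [246 to 482], and Tdrd6 at 16.7 CPM in KO [6.73 to 34.5] and 113 CPM in WT [58.6 to 198], where WT somatic cells had 143 CPM of Gtsf1 and 114 CPM of Tdrd6. So the intervals of Piwil1, Gtsf1 and Tdrd6 stayed apart at a like marker share, while those of Tdrd1, Tdrd9, Mael, Piwil2 and Mov10l1 overlapped. Those of Tdrd5 overlapped only at their ends, at 62.2 CPM in KO [40.6 to 91.1] and 151 CPM in WT [86.4 to 245]. Overlap of intervals does not show equal levels, and no ratio was taken within this range. WT somatic cells themselves had a pachytene marker share of 0.197%, so like shares need not be like stages, and the part of stage and free RNA in the Piwil1 difference was not tested.

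**Figure D2:**
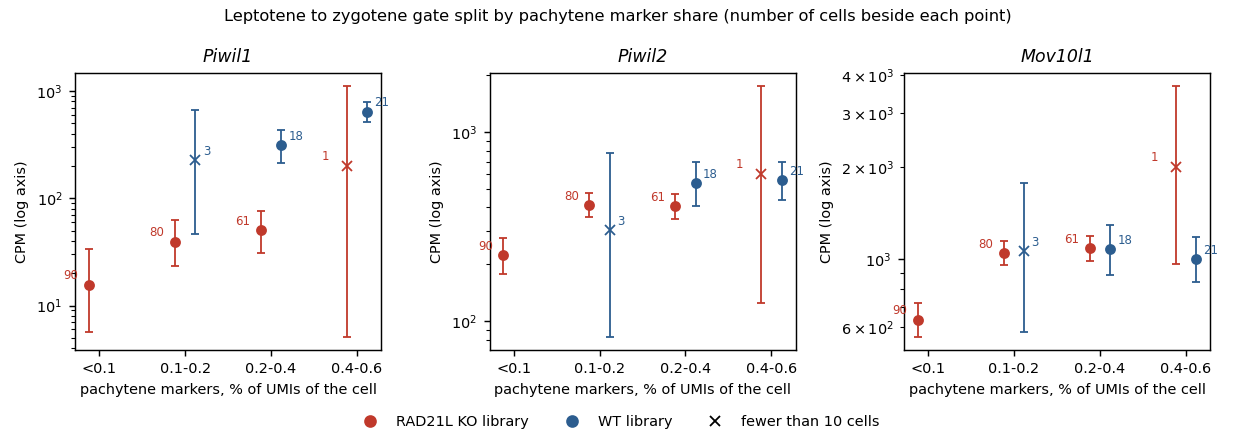
CPM (log axis) of Piwil1, Piwil2 and Mov10l1 in leptotene to zygotene cells by the cell's pachytene marker share in percent of UMIs, KO left of WT, with exact Poisson 95% intervals and cell numbers. Piwil1 is 50.2 CPM in KO and 312 CPM in WT at 0.2 to 0.4%, where Mov10l1 is 1086 CPM in KO and 1077 CPM in WT.

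In spermatogonia 3 of 10 genes stood at least 2-fold lower in KO (Tdrd6, -6.50; Piwil1, -2.57; Gtsf1, -1.19), against 9.49% of all genes, and 0 of 10 at least 2-fold higher, against 6.25%. In preleptotene to leptotene cells the same 3, of 8 tested, stood lower (Tdrd6, -5.31; Piwil1, -4.02; Gtsf1, -1.63), against 8.06% of all genes, and 0 of 8 higher, against 8.39%. In WT these 3 genes lay at or near the WT somatic level in both gates (50.0 CPM for Piwil1, 114 CPM for Tdrd6 and 143 CPM for Gtsf1). The part of free RNA in these ratios was not tested. With the somatic level taken off, Gtsf1 turned round in spermatogonia, to 63.0 CPM in KO and 6.44 CPM in WT (log2 ratio 3.29), where 3 WT UMIs would be 4.06 CPM. That WT remainder was small beside the 150 CPM counted. In preleptotene to leptotene cells nothing was left of Gtsf1 in WT, beside 53.9 CPM in KO. WT was therefore set to the 11.9 CPM of 3 UMIs, and the resulting 2.18 is set by that floor. Neither ratio has an interval for the counting error of the amount taken off, so they do not settle a direction. Piwil2 (0.12), Tdrd1 (0.06), Mov10l1 (0.06) and Piwil4 (0.02) were close between the libraries in spermatogonia, with intervals that included 0.

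**Figure D3:**
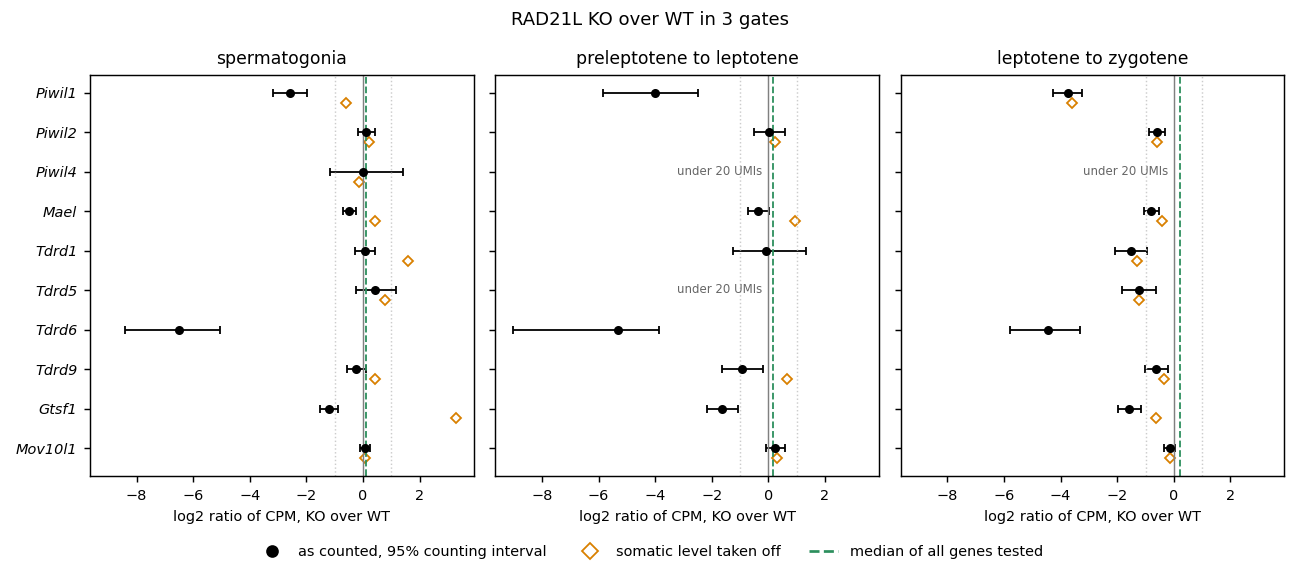
KO over WT log2 ratios of CPM in the 3 gates held by both libraries: black points as counted with 95% counting intervals, open diamonds with the somatic level taken off where both libraries stayed above 3 UMIs, dashed line the median of all genes tested, dotted lines the 2-fold limits. At leptotene to zygotene, Piwil1 stays at -3.58 with the somatic level taken off, while Gtsf1 moves to -0.61.

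Of the other pathway genes, a list of 21 of which 20 were found, 14 were tested at leptotene to zygotene. Among these 1 stood at least 2-fold lower in KO, against 9.99% of all genes, and 1 at least 2-fold higher, against 15.6%. Ddx4, the germ cell helicase of the granules, stood lower in KO, at 247 CPM in KO (312 UMIs) and 899 CPM in WT (233 UMIs). Its log2 ratio was -1.86 [-2.11 to -1.61], and somatic cells had 9.24 CPM in KO and 100 CPM in WT. Btbd18, a nuclear factor for pachytene piRNA loci, stood higher at 37.2 CPM in KO (47 UMIs) and 15.4 CPM in WT (4 UMIs), with an interval that included 0 [-0.18 to 3.2]. The median of the 14 was 0.03, beside 0.21 over all genes and -1.25 over the 9 members tested. In preleptotene to leptotene cells 1 of 14 was past the fold, Tcfl5, which stood lower in KO (-1.66 [-2.67 to -0.59]). Of all genes 8.06% were lower and 8.39% higher there. Somatic cells had 2.18 CPM of Tcfl5 in KO and 23.8 CPM in WT. In spermatogonia 0 of 17 were past the fold, where 9.49% of all genes were lower and 6.25% higher. None of these counts stood clear of the share over all genes. The part of free RNA in the Ddx4 and Tcfl5 ratios was not tested.

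Somatic cells of the KO library, where free germ cell RNA was low, showed a Tdrd1 signal in 1 cell type. Tdrd1 stood at 43.8 CPM in 1183 Sertoli cells [39.5 to 48.5] (379 UMIs), against 4.49 CPM in 654 Leydig cells (22 UMIs) and 6.39 CPM in 695 other somatic cells. Sertoli over Leydig cells gave a log2 ratio of 3.29 [2.67 to 3.98] for Tdrd1 and 2.19 [1.46 to 3.01] for Tdrd9, at 15.9 CPM in Sertoli and 3.47 CPM in Leydig cells. These 2 of 7 tested genes compare with 36.5% of all genes past 2-fold, so the count is near the background. Mael (-0.08) and Mov10l1 (0.22) had intervals that included 0.

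Sertoli cells held 379 Tdrd1 UMIs to 103 Piwil2 UMIs, against 486 Tdrd1 UMIs to 700 Piwil2 UMIs in KO spermatogonia. The 301 Sertoli cells with a Tdrd1 UMI had axis markers at 0.0151% of UMIs, Mov10l1 at 14.5 CPM and Sertoli markers at 2.11%. The 882 Sertoli cells without one had axis markers at 0.0155%, Mov10l1 at 12.2 CPM and Sertoli markers at 2.03%. Markers of differentiating spermatogonia were at 0.0428% in cells with and 0.0348% in cells without a Tdrd1 UMI, Piwil2 at 14.9 CPM with and 10.8 CPM without, and Tdrd9 at 19.9 CPM with and 14.3 CPM without. Mael went the other way, at 5.79 CPM with (14 UMIs) and 6.59 CPM without (41 UMIs). Ddx4 stood at 7.44 CPM with (18 UMIs) and 7.07 CPM without (44 UMIs). Axis markers and Ddx4 were thus close between these cells. Spermatogonial markers, Piwil2, Tdrd9 and Mov10l1 stood higher where Tdrd1 was found, and Mael lower. These gene levels rest on few UMIs, such as 35 with and 76 without for Mov10l1. Cells with a Tdrd1 UMI were also deeper, at a median of 7267 UMIs against 6609. The part of germ cell RNA in the Tdrd1 signal was not tested. After thinning to 2000 UMIs, 8.11% of Sertoli and 0.306% of Leydig cells held a Tdrd1 UMI. In the 41 WT Sertoli cells Tdrd1 stood at 81.2 CPM (27 UMIs), beside 114 CPM of Tdrd6, which had 0 UMIs in KO Sertoli cells.

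**Figure D4:**
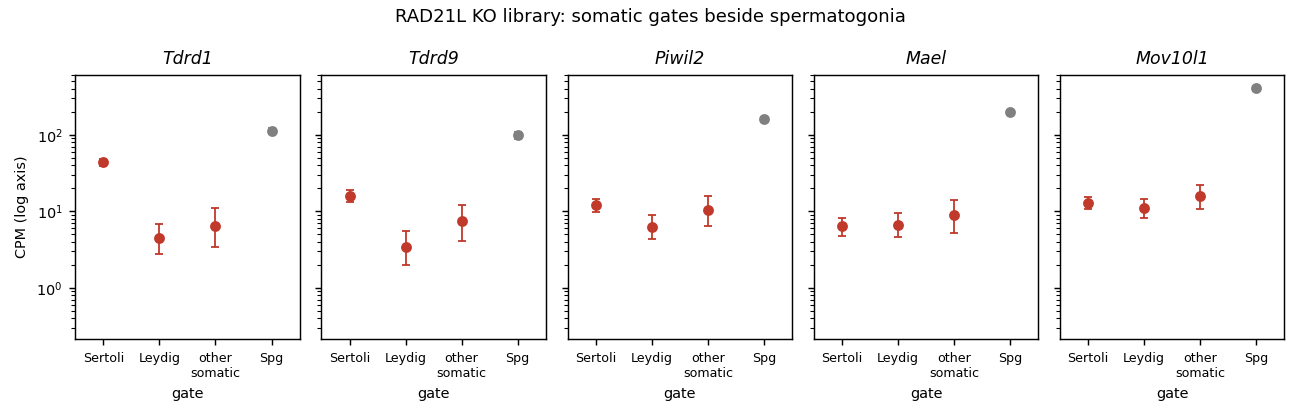
CPM (log axis) of 5 genes in Sertoli, Leydig and other somatic cells of the KO library, with KO spermatogonia in grey and exact Poisson 95% intervals. Tdrd1 is 43.8 CPM in Sertoli cells and 4.49 CPM in Leydig cells, while Mov10l1 is 12.8 CPM in Sertoli and 11 CPM in Leydig cells.

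How alike the patterns were was measured as Pearson's r of log2(CPM + 10) over 15 gates of both libraries with at least 30 cells. The gates share libraries, free RNA and depth, so r is a description. Among members, Mov10l1 and Piwil2 were most alike (0.96), followed by Piwil2 and Tdrd9 (0.93), Mael and Gtsf1 (0.91), and Tdrd1 and Tdrd5 (0.88). Piwil1 was most like Tdrd6 (0.87), and was far from Mov10l1 (0.32), with which it shared both promoter motifs. Piwil4, which had few UMIs, had no r above 0.28 with any other member.

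Over 13271 genes with at least 100 UMIs in these gates, the 3 most like each member were fixed by rank. For Piwil1 they were Cfap74, Agbl2 and Ptchd3 (0.96 each), for Piwil2 Stk31 (0.97), Cntrob and Topaz1 (0.96 each), and for Piwil4 Lin28a (0.99), Fbxo41 (0.96) and Pramel13 (0.95). Lin28a was itself a marker of the split of spermatogonia. Piwil4 itself fell under the limit of 100 UMIs, with 42 in KO spermatogonia, 7 in WT spermatogonia and 17 in KO somatic cells. Its r values therefore rest on few UMIs. For Mov10l1 they were Pcgf5 (0.98), Rgs12 and Dmxl2 (0.97 each), for Gtsf1 Ccdc136 (0.98), Ddx25 and Spata33 (0.96 each), and for Mael Trim37 (0.98), Tuba3b and Ccdc92 (0.96 each). For the Tudor genes they were Pbk (0.93), Rhpn1 (0.92) and Fyttd1 (0.91) with Tdrd1, Anks1b (0.96), Rhpn1 and Cyct (0.94 each) with Tdrd5, Marchf11 (0.995), A26c3 and Spag6l (0.994 each) with Tdrd6, and Nuf2 (0.97), Dnaaf5 and Csnk2a2 (0.95 each) with Tdrd9. Tdrd1 and Tdrd5 thus shared Rhpn1, and Tdrd1 had the lowest leading r of the 10 genes.

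**Figure D5:**
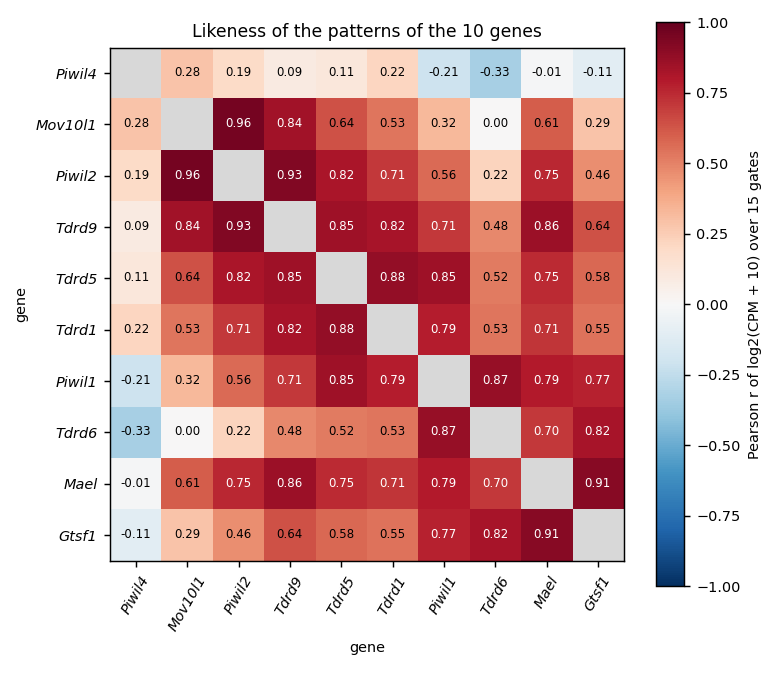
Pearson r of log2(CPM + 10) over 15 gates for each pair of the 10 genes (rows and columns are genes, colour is r). The pair of Mov10l1 and Piwil2 reaches 0.96, and Piwil4, on few UMIs, stands apart from the other 9.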

How the data were processed

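Whole testes of 1 RAD21L KO and 1 WT mouse were profiled. The values used are raw UMI counts, as whole numbers for each gene in each barcode, from matrices deposited by the authors. The submitters' processing notes name Cell Ranger 6.1.2, Seurat 4.3 and build GRCm39. The rule by which barcodes were taken as cells is not given in the sources used here. Cells were kept with at least 500 genes and at most 20% mitochondrial UMIs. Scrublet in Scanpy 1.11.5 marked 126 KO cells (1.97%), which were removed, and 1 WT cell (0.0185%), a call that had not worked, so WT doublets were left in.

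Gates were limits on marker shares per cell, from 140 of 141 marker genes. Lowering or raising the limits by 20% moved 48 of 232 KO and 21 of 42 WT leptotene to zygotene cells. It moved 61 of 164 WT pachytene cells with axis markers high and 111 of 308 with axis markers low. Cells under 2000 UMIs (2143 in KO and 2410 in WT) and cells in no gate (357 in KO and 457 in WT) were left out. UMIs were summed per library and gate and scaled to CPM, with exact Poisson intervals for levels, conditional binomial for ratios and Clopper-Pearson for shares. No interval covers differences between animals. Ratios were tested, meaning counted against the 2-fold limit, for genes with at least 20 UMIs in both gates together, with counts under 3 set to 3. The steps were tested on simulated data.

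The members, lists, markers and gates were chosen with earlier results of these data known. All members are named, other pathway genes past 2-fold between KO and WT are named, and likeness names the 3 genes of highest r. The alternatives are given in the closing section.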

Additional observations from a re-analysis of the deposited data

How the results depend on the processing

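No paired analysis was possible because each genotype had 1 library. At leptotene to zygotene, 5 of 9 members were at least 2-fold lower in KO. The count was 8 with a fold of at least 1.5, 3 with the somatic level taken off, 6 with the median ratio of all genes set to 0 and 4 with at least 50 UMIs. Under 300 or 1000 detected genes, no doublet removal, 10% or 20% of the whole-library profile taken off, gate limits 1.5 times as high, gates of at least 1000 UMIs and shared barcodes left out, it was 5. Members at least 2-fold higher in pachytene cells with axis markers high than at leptotene to zygotene in WT were 3, and 5 with a fold of at least 1.5. In spermatogonia, taking off 20% turned the log2 ratio of KO over WT to 0.0047 for Gtsf1, and to 1.34 for Piwil1, where WT was left under 3 UMIs and set to 3. Taking the somatic level off turned Gtsf1 to 3.29 in spermatogonia, where little was left in WT. It turned Gtsf1 to 2.18 in preleptotene to leptotene cells, where nothing was left in WT and 3 UMIs were put in its place. The Piwil1 value and the last Gtsf1 value are set by that floor. The cause of the other changes was not tested. Clusters named from the same markers left 0 WT leptotene to zygotene cells, and pachytene markers under 0.3% left 8. Neither gave a KO over WT ratio there or a WT pachytene ratio over that gate. Gate limits 1.5 times as high left 17 WT pachytene cells with axis markers high, so they gave no such pachytene ratio either. These limits also let cells with a higher pachytene marker share into the leptotene to zygotene gate, which went from 42 to 95 WT cells. Their count of 5 is therefore not from a like gate. The alternatives with 1000 UMIs, 0.3%, the somatic level and shared barcodes were chosen after seeing the data. Cell number limited WT most, where 3 UMIs are 11.9 CPM in 52 preleptotene to leptotene cells and 11.6 CPM in 42 leptotene to zygotene cells.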

Other observations

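The genes of 2 transcription factors of the pathway, chosen after their values were seen, had patterns of their own. Mybl1, which encodes A-MYB, stood at 11, 161 and 206 CPM in KO spermatogonia, preleptotene to leptotene and leptotene to zygotene cells. In the WT gates it stood at 10.8, 103 and 285 CPM. At leptotene to zygotene its log2 ratio of KO over WT was -0.47 [-0.85 to -0.08]. Mybl1 also stood at 82.1 CPM in KO Sertoli cells (710 UMIs), against 6.53 CPM in KO Leydig cells (32 UMIs). Tcfl5 stood at 69.6 CPM in KO and 92.6 CPM in WT leptotene to zygotene cells, a ratio of -0.41 with an interval that included 0 [-1.08 to 0.30], and WT somatic cells stood at 23.8 CPM.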
